A study of Mus musculus with 12 samples.

Results

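The knockout difference that subcutaneous white adipose tissue (scWAT) and brown adipose tissue (BAT) had in common was measured as the average of 2 contrasts, *Lr11* -/- minus wild type (WT) in scWAT and the same in BAT. All 12 arrays of the series entered, 3 for each genotype in each depot, and the source name of each sample set its group. The mice were C57Bl6/J males at 12 weeks of age, and WT animals were littermates of the knockouts. Every animal of the 4 groups was on a high-fat diet (HFD) that supplied 60% of calories from fat. The labels date the diet both from weaning and to 4 weeks, so its length is not settled. *Lr11* (gene symbol *Sorl1*) was lost from the germline, in all cells of the body, and the labels do not say whether both depots came from the same animals. Where they do, the 2 contrasts are not independent, and where the 3 arrays of a group are not separate animals, the p values measure only the spread between samples.

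LR11, also called SorLA, is a sorting receptor with a VPS10p domain and ligand-binding repeats of the lipoprotein receptor kind. It carries proteins between the Golgi apparatus, endosomes and the cell surface, binds lipoprotein lipase and apolipoprotein E among others, and is shed as a soluble fragment. In adipose tissue the soluble form has been studied as a brake on thermogenesis, which brown adipocytes perform with the uncoupling protein UCP1. White adipocytes store triglyceride, and brown adipocytes burn it.

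Each value below is the log2 of a spot's intensity minus the 75th percentile of its array, so that a spot at that percentile reads 0 and a difference of 1 is 2-fold. Differences are *Lr11* -/- minus WT. Of 55681 probes, 32121 passed a background filter (all 3 arrays of 1 group or more well above it) and were tested with limma, and a probe was called at a Benjamini-Hochberg adjusted p under 0.05. Between 29833 and 34220 probes per array were well above background and no spot was saturated. Where a group had a probe above background on none of its 3 arrays, a fold is given as a lower bound (at least N-fold), taken from the lowest signal well above background on each dim array. The bound covers dim signal only.

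Some arrays stood apart from the others of their group. Replicate 1 of each group belonged to a first array series and replicates 2 and 3 to a second. *Ucp1* was at 4.39 in *Lr11* -/- scWAT replicate 1 and at 9.75 and 10.05 in the other 2, and at 2.92 in WT scWAT replicate 3 against -4.63 and -4.52. In BAT *Ucp1* lay between 9.45 and 10.07 on all 6 arrays, as the depot's label has it. *Lr11* -/- scWAT replicates 2 and 3 reached BAT level in the summed signal of 9 thermogenic genes. They stood at 2157 and 2367 times the array's 75th percentile. The range was 1620 to 2252 in WT BAT and 2026 to 2368 in *Lr11* -/- BAT. *Lr11* -/- scWAT replicate 1 was at 175, and WT scWAT between 1.30 and 45.9. Skeletal muscle markers, of which 10 of 17 were tested, were bright on 5 arrays. These were WT scWAT replicate 3, *Lr11* -/- scWAT replicate 1, WT BAT replicates 1 and 3 and *Lr11* -/- BAT replicate 1, where the summed level of the 10 markers was between 951 and 5599 times the array's 75th percentile. It was between 6.14 and 40.0 times on the other 7 arrays. Adipocyte markers (7 of 7 tested) summed to between 417 and 1827 in WT scWAT and between 1975 and 2354 in *Lr11* -/- scWAT, with no overlap. The 417 was WT scWAT replicate 2, beside 1827 and 1388 on replicates 1 and 3. That array was also the brightest of its group in summed macrophage markers (585 against 140 and 123) and neutrophil markers (235 against 16.3 and 3.21). How far it shaped the scWAT differences of these lists was not tested. In BAT they summed to between 1521 and 1855 in WT and between 1807 and 2209 in *Lr11* -/-. In whole tissue fewer cells of a type and less RNA per cell cannot be told apart, and the part of the adipocyte and *Ucp1* differences in the results that follow was not tested. With the mean of the muscle markers as a covariate, 19 of the 37 shared probes described next were called.

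The average passed the threshold for 39 probes, which is 0.121% of those tested, with 21 higher (0.0654%) and 18 lower (0.0560%) in *Lr11* -/-. For 37 of the 39 the difference had the same sign in both depots, 20 higher and 17 lower. They are called shared here, and 26 of them carry the symbol of 1 of 25 genes. Without scaling of the arrays 6 probes were higher and 13 lower. Without *Lr11* -/- scWAT replicate 1 the shared probes numbered 3111, without *Lr11* -/- BAT replicate 1 or replicate 3 they numbered 8, and every array left out moved the number by over 1.5 times. Within the second array series alone there were 1779, which included 36 of the 37, and a block for the array series left 18, which included 16 of the 37. In the first array series alone, which has 1 array a group and no test, all 37 had the direction of the whole set in both depots. The arrays of both series had entered the call of the 37, so the agreement within either series is no second test of it. Only 8 probes were called whichever array was left out. They measure *Sorl1*, *Nxpe4*, *Ppcdc*, *Abcg4* (2 probes), *Vmn1r216* and 2 transcripts without a symbol.

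**Figure D1:**
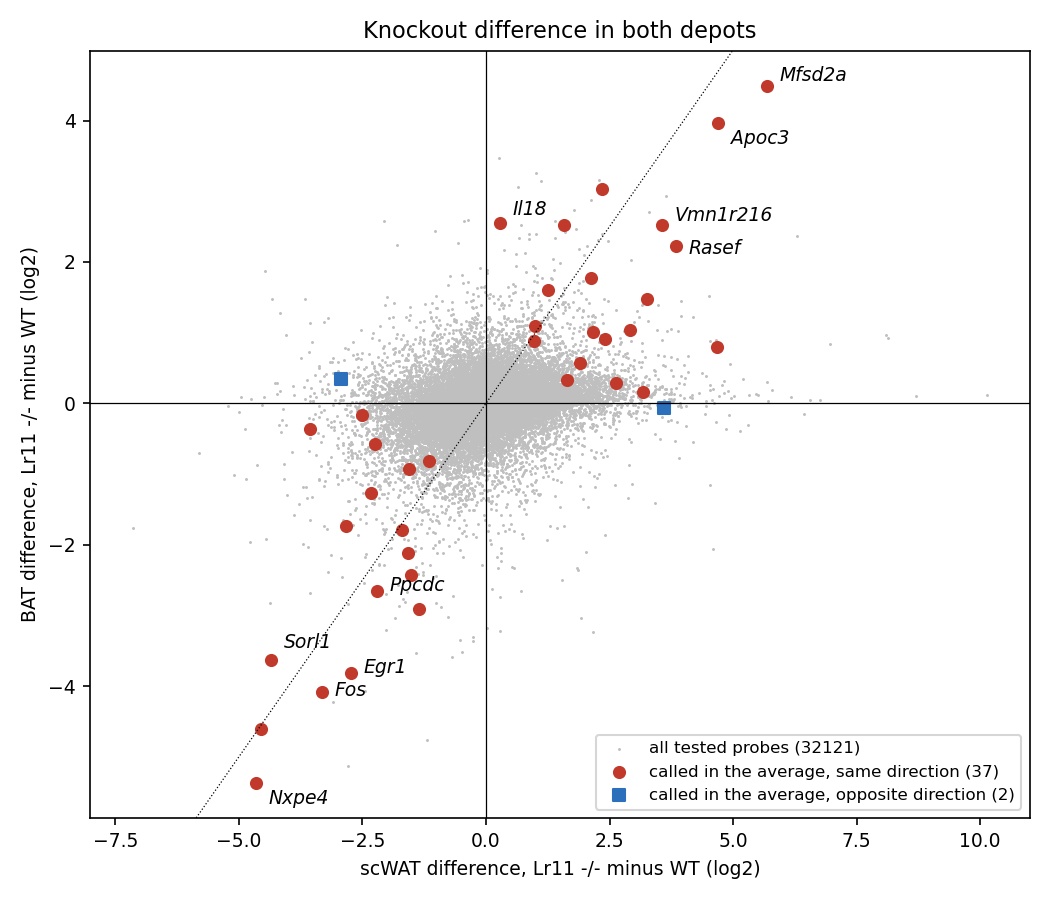
Each point is 1 of the 32121 tested probes, placed by its difference (*Lr11* -/- minus WT, log2) in scWAT on the horizontal axis and in BAT on the vertical axis. The dotted line marks equal differences. The 37 shared probes (red) include *Nxpe4*, *Sorl1*, *Fos* and *Egr1* at the lower left and *Mfsd2a* and *Apoc3* at the upper right, and the 2 called probes of opposite direction (blue squares) have BAT differences near 0.

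The genotypes were also compared array by array. For 29 of the 37 (16 higher, 13 lower) every *Lr11* -/- array lay on one side of every WT array in both depots. Over all tested probes 652 (2.03%) did so in the same direction and 164 in opposite directions. This separation and the average use the same arrays, so the count of 29 describes the call and is no second test of it. The unadjusted p was under 0.05 in each depot for 28 of the 37. The scWAT difference was the larger for 23 and the BAT difference for 14, with median sizes of 2.34 and 1.74. Of the 37, 33 were among the 1692 probes (5.27%) called in scWAT alone. Each probe's spread was estimated over all 4 groups, so its SE is the same in both depots. A BAT p thus also carries the scWAT spread. *Apoc3* differed by 3.96 in BAT with SDs of 0.28 and 0.14, but its SE was 0.86, beside an SD of 2.35 in WT scWAT. How far this shaped the BAT calls was not tested. In BAT alone 6 probes (0.0187%) were called. Of these, 5 were called in both depots, *Sorl1*, *Nxpe4*, *Ppcdc* and 2 probes without a symbol. *Mfsd2a* was the shared probe nearest to the threshold (adjusted p = 0.0467 from limma), and *Ttc36*, higher by 2.46 in scWAT and 2.30 in BAT, stood just outside it (adjusted p = 0.0575).

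*Sorl1*, the targeted gene, fell in both depots, which checks the labels. Its level was 0.91, 0.96 and 1.15 on the WT arrays of scWAT and -3.57, -3.56 and -2.87 on those of the knockout. The BAT arrays read 0.71, 1.21 and 0.11 for WT and -3.93, -2.45 and -2.48 for knockout mice. The 6 knockout arrays were below the 6 WT arrays with a wide gap, and the probe was still well above background on each of them. The average difference was -3.99 (SE 0.29, adjusted p = 0.000876 from limma), and a two-sided exact permutation test over the 400 relabellings within depots gave p = 0.005, the smallest it can give. The average stayed between -4.13 and -3.74 whichever array was left out.

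*Nxpe4*, which encodes a member of the neurexophilin and PC-esterase domain family, had the largest average fall of the called probes. In scWAT it was at 0.04, -1.22 and -1.30 in WT and at -4.38, -5.74 and -6.32 in *Lr11* -/-. BAT of WT mice gave -0.77, -0.38 and 0.03, and that of knockout mice -6.33, -5.72 and -5.18. All WT arrays measured the probe, whereas only 1 of 6 knockout arrays had it above background, and in BAT the level was at least 17.9-fold lower (adjusted p of the average = 0.000876 from limma). *Ppcdc*, the decarboxylase of coenzyme A synthesis, was dim throughout, at -4.41, -4.54 and -4.06 on the WT arrays of scWAT and -4.36, -3.12 and -4.07 in WT BAT. It was above background on none of the 6 knockout arrays, which bounds the fall at 1.17-fold or more in scWAT, where 2 of 3 WT arrays measured it, and at least 1.61-fold in BAT (adjusted p = 0.00234 from limma).

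*Abcg4*, a transporter of the ABC family that exports sterols, was the only called gene with more than 1 called probe. Its brighter probe was at -0.89, -0.14 and -1.04 on the WT arrays of scWAT and at -3.10, -2.68 and -3.25 on the knockout arrays. BAT levels were -1.90, -2.15 and -1.64 for WT and -3.13, -3.15 and -3.21 for knockout mice. The knockout arrays of both depots lay close together, and the WT arrays of scWAT were brighter than those of BAT, so the difference was -2.32 in scWAT and -1.27 in BAT (average -1.80, SE 0.19, adjusted p = 0.00772 from limma). The second probe was above background on no knockout array, at least 5.65-fold lower in scWAT and 2.99-fold lower in BAT.

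*Atm*, the kinase that answers DNA double-strand breaks, also fell in both depots. The called 1 of its 2 probes dropped by 1.14 in scWAT and by 0.81 in BAT, without overlap, and the brighter probe, at an adjusted p of 0.0601, was not called.

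The genes that rose were led by 2 with a role in lipid handling. *Mfsd2a*, a transporter of lysophosphatidylcholine that carries long-chain fatty acids into cells, was at -4.22, -6.34 and -1.89 on the WT arrays of scWAT and at 0.70, 3.15 and 0.77 on the knockout arrays. BAT levels were -0.50, -1.64 and -3.45 for WT and 3.07, 1.69 and 3.13 for knockout mice. The WT arrays spread widely in both depots and none reached the knockout arrays. Its average difference was 5.09 (SE 0.79), and the call was kept in 3 of the 12 fits that left out 1 array. *Apoc3*, an apolipoprotein that restrains lipoprotein lipase, was at -1.57, -4.93 and -0.41 on the WT arrays of scWAT and at 2.08, 2.43 and 2.69 on the knockout arrays. BAT levels were -2.22, -1.67 and -1.93 for WT and 1.96, 2.18 and 1.92 for knockout mice. The knockout arrays of both depots thus sat at nearly 1 level (average 4.33, SE 0.61, adjusted p = 0.0388 from limma), and the call was kept in 4 of the 12 such fits. With the array series as a block neither was called (adjusted p = 0.0699 for *Mfsd2a* and 0.059 for *Apoc3* from limma).

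*Vmn1r216*, a vomeronasal pheromone receptor from a large family of similar genes, rose from between -4.79 and -3.53 in WT to between -0.67 and -0.46 in *Lr11* -/- scWAT. In BAT it rose from between -3.84 and -3.56 to between -1.61 and -0.51 (average 3.05, SE 0.25, adjusted p = 0.00131 from limma). The probe was above background on 1 of 3 WT scWAT arrays and all others, and was not checked against the other members of that family. *Bcat2*, the mitochondrial aminotransferase that begins the breakdown of branched-chain amino acids, was at 2.10, 0.68 and 1.48 on the WT arrays of scWAT and at 3.61, 3.55 and 3.60 in *Lr11* -/- scWAT. In BAT it went from 2.37, 2.38 and 2.38 to 3.46, 3.22 and 3.48. Its arrays were tight in every group but WT scWAT, and the average difference was 1.59 (SE 0.21, adjusted p = 0.0318 from limma).

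Of the other risers without overlap, *Rasef*, a GTPase of the Rab type with EF-hands, was above background on none of the WT arrays of either depot and on all knockout arrays, at least 3.88-fold higher in scWAT and 2.30-fold higher in BAT (adjusted p = 0.0141 from limma). *Mmd2*, of the progestin and adipoQ receptor family, was below background in WT scWAT, at least 2.23-fold higher in the knockout, and rose by 1.47 in BAT (adjusted p = 0.0141). On its brighter probe *Tectb*, a protein of the inner ear's tectorial membrane, was at least 3.64-fold higher in scWAT and rose by 1.04 in BAT (adjusted p = 0.0444). The dimmer *Tectb* probe was above background on no scWAT array of either genotype, differed by 0.50 in BAT with overlap and was not called. *Gm5617* was bright, at between 1.86 and 2.56 in WT scWAT against 3.70, 5.03 and 5.11 in *Lr11* -/-, and between 4.20 and 4.38 in WT BAT against 4.98 to 5.45 (adjusted p = 0.0444). For *Mmd2*, *Tectb*, *Bcat2* and *Gm5617* the rise was larger in scWAT than in BAT at an unadjusted p for the difference of 0.00918, 0.0105, 0.0203 and 0.013, none of which held after adjustment.

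**Figure D2:**
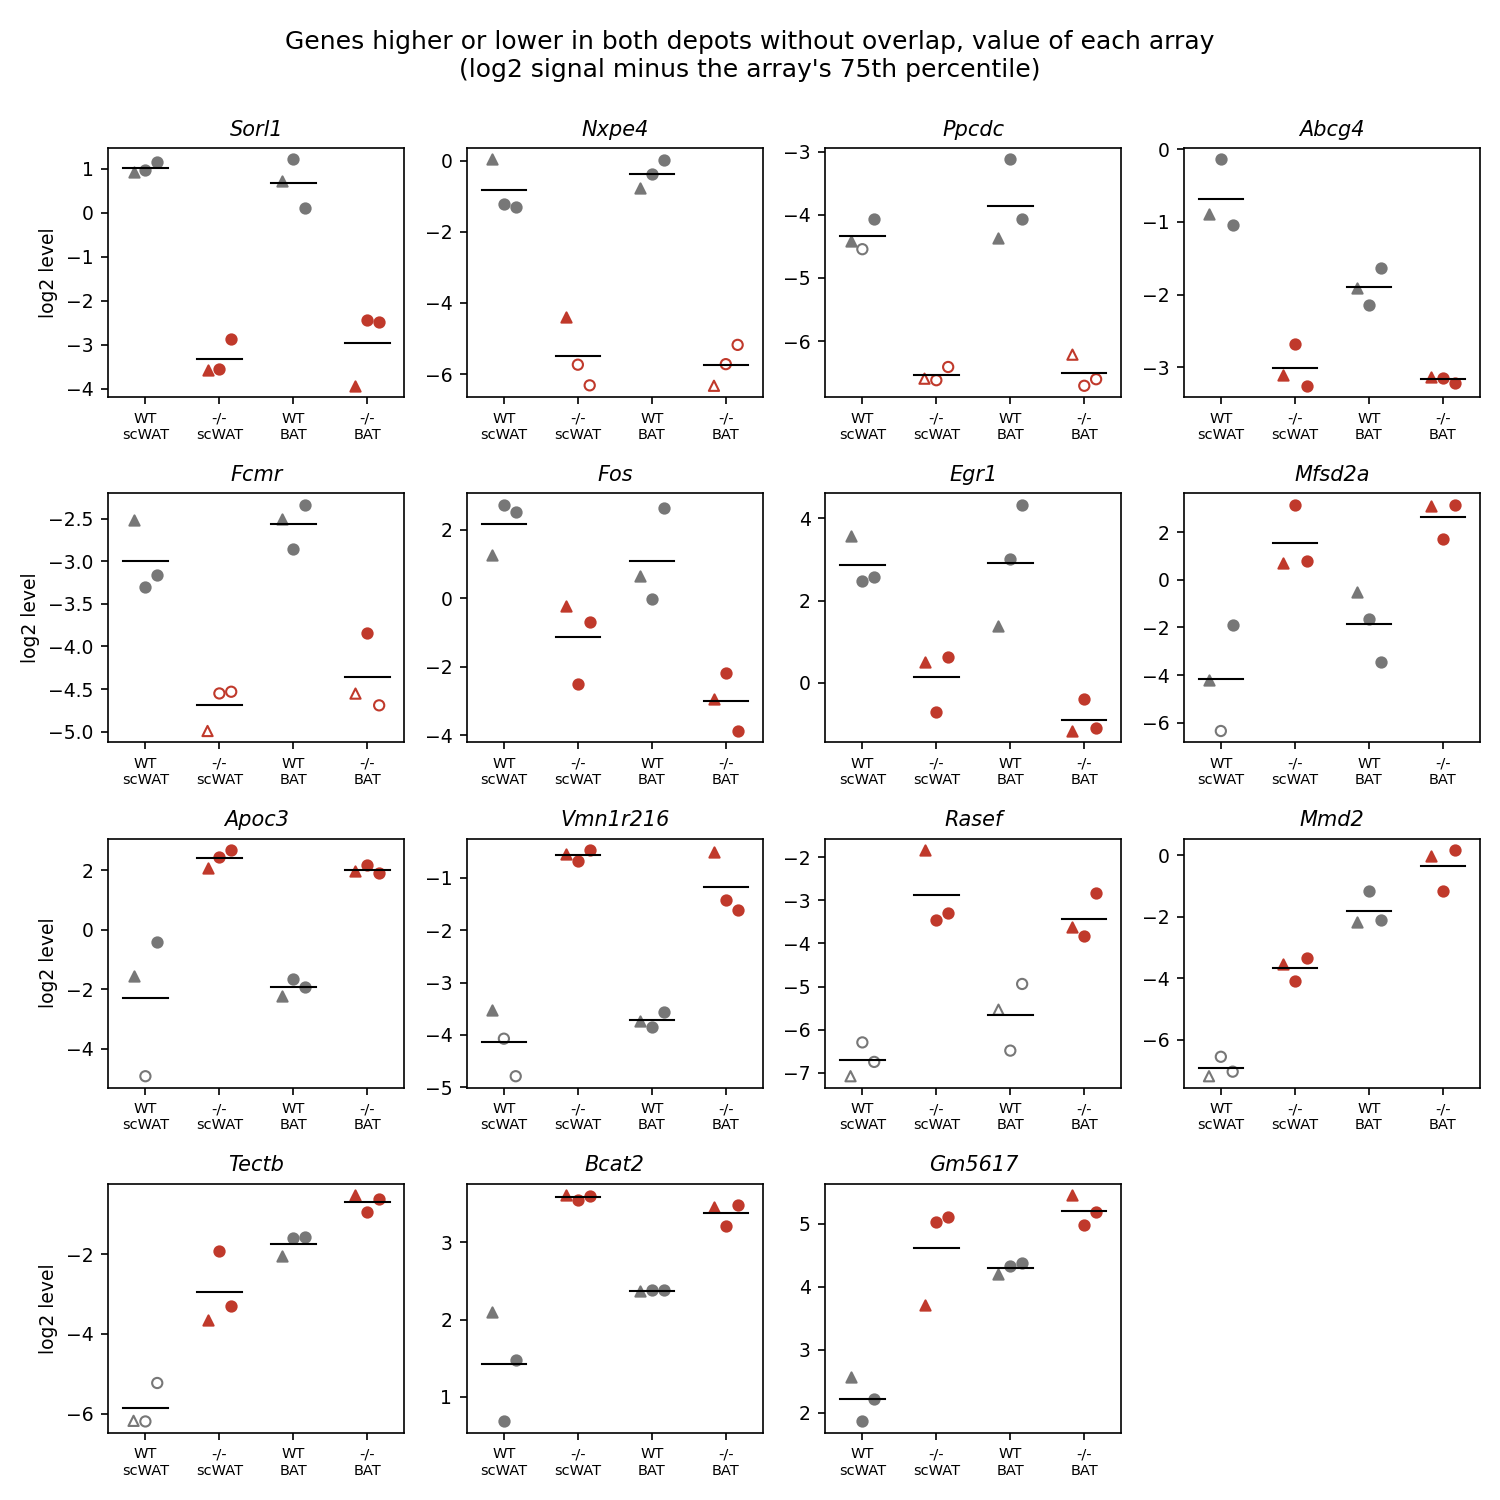
Level of 15 shared genes that separated the genotypes in both depots, 1 panel a gene, with the log2 level on the vertical axis (log2 signal minus the array's 75th percentile). Triangles are arrays of the first series, circles those of the second, grey is WT, red is *Lr11* -/-, open symbols were not well above background and the bar is the mean. In every panel the red symbols of a depot lie wholly above or wholly below its grey ones.

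*Fos* and *Egr1*, transcription factors of the immediate early class that cells switch on within minutes of a stimulus, fell together. *Fos* was at 1.26, 2.74 and 2.52 on the WT arrays of scWAT and at -0.24, -2.50 and -0.68 on the knockout arrays. BAT levels were 0.66, -0.04 and 2.63 for WT and -2.95, -2.18 and -3.88 for knockout mice. *Egr1* went from 3.56, 2.48 and 2.57 to 0.52, -0.71 and 0.63 in scWAT, and from 1.40, 3.03 and 4.34 to -1.17, -0.40 and -1.10 in BAT. Both were well above background on all 12 arrays, and their groups did not overlap despite a wide spread within them. The average was -3.70 for *Fos* (SE 0.55, adjusted p = 0.0444 from limma) and -3.27 for *Egr1* (SE 0.47, adjusted p = 0.0388). The calls were kept in 3 and 4 of the 12 fits that left out 1 array, and neither was kept once the array series was a block.

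The list of immediate early and heat shock genes, of which 13 of 14 were tested, shows how far this went beyond both genes. They were the only 2 members called, against 0.121% of all probes. A further 6 members, *Fosb*, *Jun*, *Junb*, *Ier2*, *Atf3* and *Dusp1*, had negative differences in both depots without passing the threshold in the average, and *Nr4a1* was at 0.21 in scWAT and -1.43 in BAT. In BAT 8 of the 13 members had an unadjusted p under 0.05, where 2.12% of all probes did, and none passed adjustment there. For 6 of these 8 (*Fos*, *Egr1*, *Jun*, *Junb*, *Ier2* and *Dusp1*) the BAT differences ranged from -4.08 to -1.22, *Fosb* was at -1.35, and the chaperone gene *Hsph1* was at 1.81. The 3 other heat shock genes tested (*Hspa1a*, *Dnajb1* and *Hspb1*) had BAT differences between 0.62 and 1.0. The median of the list was -0.52 in scWAT and -1.35 in BAT, beside 0.05 in each depot for all tested genes. Within the first array series the scWAT median was 0.03.

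**Figure D3:**
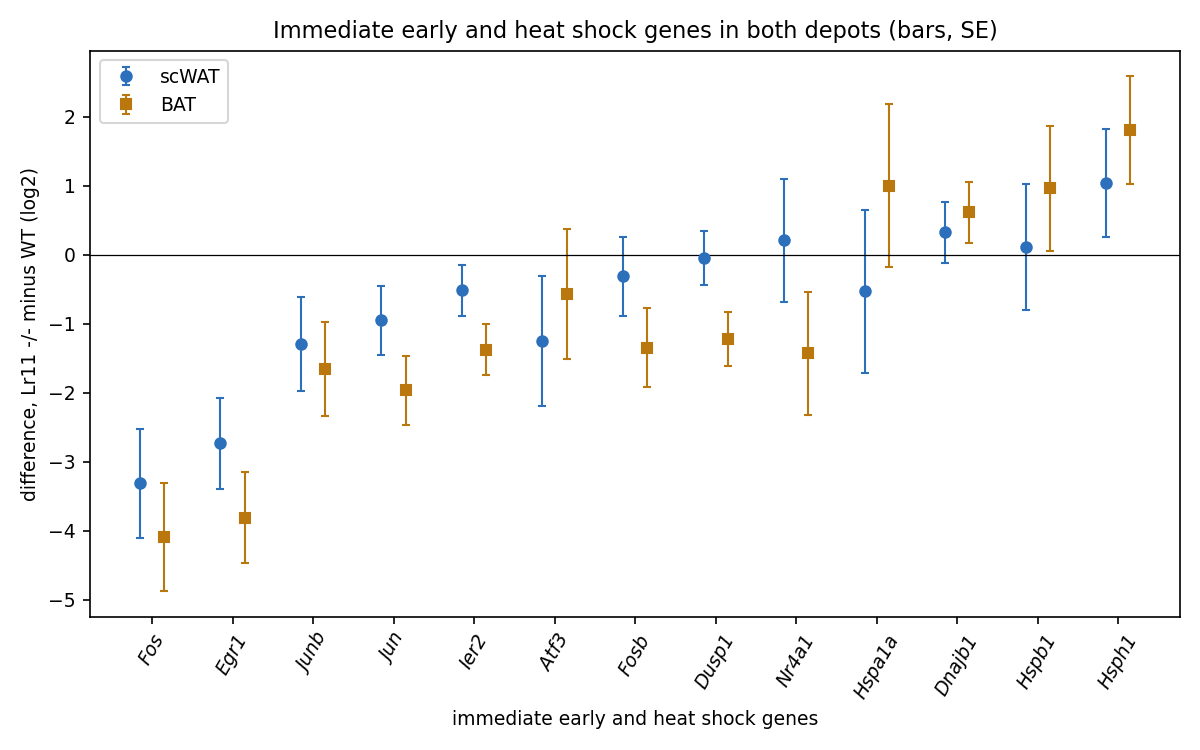
Difference between *Lr11* -/- and WT (log2, vertical axis) for the 13 tested immediate early and heat shock genes in scWAT (blue circles) and BAT (brown squares), ordered by their average, with bars of 1 SE from limma. *Fos* and *Egr1* lie lowest in both depots, and *Hsph1* is highest in both.

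Because these genes share a direction in BAT, their upstream sequence is shown for the 3 that belong to the FOS and JUN families outside *Jun* itself, whose dimers make the AP-1 factor. Each line gives the 250 bases before the RefSeq start in assembly GRCm38.p6, 5′ to 3′ on the gene's strand, with TGACG (the core of the cyclic AMP response element, searched on both strands) in capitals. *Fos* lies at chr12:85473640-85473889 on the plus strand, *Fosb* at chr7:19310046-19310295 and *Junb* at chr8:84978749-84978998 on the minus strand.
Fos: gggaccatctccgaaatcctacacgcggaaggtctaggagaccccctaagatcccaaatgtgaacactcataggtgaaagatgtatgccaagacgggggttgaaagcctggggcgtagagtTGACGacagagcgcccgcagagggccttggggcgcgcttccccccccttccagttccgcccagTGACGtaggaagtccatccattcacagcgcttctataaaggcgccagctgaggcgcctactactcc
Fosb: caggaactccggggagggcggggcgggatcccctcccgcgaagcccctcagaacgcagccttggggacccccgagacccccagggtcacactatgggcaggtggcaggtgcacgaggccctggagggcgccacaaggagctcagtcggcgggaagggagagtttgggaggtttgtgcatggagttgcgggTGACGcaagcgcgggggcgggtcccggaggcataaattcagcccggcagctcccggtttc
Junb: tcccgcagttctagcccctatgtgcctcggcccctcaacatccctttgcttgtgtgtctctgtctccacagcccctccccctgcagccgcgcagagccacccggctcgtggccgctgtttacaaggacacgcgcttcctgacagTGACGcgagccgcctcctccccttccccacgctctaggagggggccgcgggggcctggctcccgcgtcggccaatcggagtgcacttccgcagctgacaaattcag
TGACG stood 129 and 66 bases before the *Fos* start, 60 before that of *Fosb* and 106 before that of *Junb*. *Egr1* was not looked up. Of the 8 other immediate early genes that were, 7 had an entry, and 6 of the 7 held it in this window, with *Jun* the exception. It was held by 17.8% of all 32851 promoters. The full palindrome TGACGTCA was in 1.55% of them and in that of *Dusp1*, and the CArG box, the serum response factor's motif, was in 1.47% and in none of the 7. Bases outside this window were not searched, so an absence holds for these 250 bases only. A match is a description of the letters only.

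*Fcmr*, the receptor for immunoglobulin M on B lymphocytes, was at -2.52, -3.30 and -3.16 in WT scWAT and above background on no *Lr11* -/- scWAT array, at least 2.93-fold lower. In BAT it was at -2.50, -2.86 and -2.33 in WT and at -4.55, -3.84 and -4.69 in *Lr11* -/-, with 1 of 3 knockout arrays above background (average -1.75, SE 0.21, adjusted p = 0.015 from limma). It is 1 of 8 B lymphocyte markers, 5 of which were tested, *Ms4a1*, *Cd79b* and *Cr2* among them, and all 5 were lower in the knockout in both depots. Over all tested genes 3771 of 14710 were lower in both. The summed level of the 5 markers, *Fcmr* included, did not overlap between genotypes. It was 1.31 to 1.67 in WT and 0.622 to 0.744 in *Lr11* -/- scWAT, and 0.965 to 1.40 and 0.416 to 0.807 in BAT. In the knockout 2 to 3 of the 5 were above background on the scWAT arrays and 2 to 5 on the BAT arrays. Only *Fcmr* was called, and *Ms4a1*, the gene of CD20, had differences of -2.06 and -1.79 (adjusted p of the average = 0.102). *Cd79a*, *Pax5* and *Blk* did not pass the background filter. Of the other leukocyte lists, T lymphocyte markers (7 tested) had medians of 0.43 in scWAT and -0.12 in BAT. Macrophage markers (14 tested), 9 of them lower in both depots, had medians of -0.87 and -0.10. Neutrophil markers, 4 of 8 tested and 3 of them lower in both depots, had larger medians of -3.44 and -1.09. Their summed level overlapped between genotypes, at 3.21 to 235 in WT and 0.556 to 5.80 in *Lr11* -/- scWAT, and 1.61 to 1.97 and 0.634 to 1.84 in BAT. No member of these lists was called.

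The remaining shared genes were less even between the depots. *Il18*, a cytokine of the interleukin-1 family, was the reverse of most, with a difference of 0.28 in scWAT and of 2.55 in BAT. Its BAT level went from -2.42, -2.54 and -2.45 in WT to 0.14, -0.16 and 0.26 in *Lr11* -/-, whereas the scWAT groups overlapped. It was the only probe called in BAT and not in scWAT, and its sign in scWAT was positive in the first array series (1.19) and negative in the second (-0.18). *Shmt1*, the cytosolic enzyme that moves 1-carbon units from serine to folate, was higher by 3.17 in scWAT with a BAT difference of 0.16. *Dclre1c*, the nuclease Artemis of DNA end joining, was at least 8.72-fold lower in scWAT on the called 1 of its 4 tested probes, which had a BAT difference of -0.36. The 2 brighter probes of *Dclre1c* differed by -0.53 and -0.52 in scWAT, with overlap. *Tmem255a* and the mitotic checkpoint kinase *Bub1b* had BAT differences of -0.17 and -0.57 beside -2.50 and -2.24 in scWAT, and a second, dimmer probe of *Tmem255a* was at 0.26 in scWAT and 0.37 in BAT. The called probe of *A830018L16Rik*, above background on no WT scWAT array, was at least 7.22-fold higher in that depot and differed by 0.80 in BAT, where the genotypes overlapped. The brighter probe of that gene differed by 1.98 in scWAT with overlap and was not called (adjusted p = 0.322). For such genes the average passed the threshold through scWAT. The called probes of *Abl1*, a tyrosine kinase, and *Zfp944*, a zinc finger gene, separated the genotypes in both depots. Their other tested probes were not called. The brighter probe of *Abl1* differed by -0.40 in scWAT and -0.12 in BAT, with overlap in both. The brightest of *Zfp944* differed by 0.19 in scWAT and -0.05 in BAT, also with overlap.

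Of the shared probes 11 had no symbol. The probe for Ensembl transcript ENSMUST00000060989 was at -0.81, -1.39 and -1.06 on the WT arrays of scWAT and -1.20, -0.86 and -2.32 in WT BAT, and above background on none of the 6 knockout arrays, at least 10.6-fold lower in scWAT and 8.43-fold lower in BAT (adjusted p = 0.00234 from limma). Probe A_55_P2094064 showed the opposite, above background on none of the WT arrays and on 5 of 6 knockout arrays, at least 2.25-fold higher in scWAT and 2.60-fold higher in BAT. Both were called in each depot alone. A pair of probes for 1 non-coding region, chr10:6480075-6603900 (mm9, strand given as R), rose together. The brighter probe differed by 1.26 in scWAT and 1.60 in BAT, and the dimmer, above background on no WT BAT array, by 1.59 in scWAT and at least 3.07-fold in BAT. The probe for region chr2:50152329-50289487 (mm9, strand F) had differences of -1.35 in scWAT and -2.91 in BAT.

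Many shared genes lay on chromosome 9, which carries *Sorl1*. Read from its brightest probe, a gene was shared in 20 cases, and of the 19 besides *Sorl1* 7 were on chromosome 9, which holds 827 (5.62%) of the 14710 tested genes. Among the 7 were *Abcg4*, *Apoc3*, *Nxpe4*, *Gm5617*, *Il18* and *Ppcdc*. In the order of the gene table *Abcg4* was 50 genes from *Sorl1*, *Apoc3* 128, *Nxpe4* 158, *Gm5617* 170, *Il18* 204 and *Ppcdc* 354, all on the same side. *Sorl1* had 0 shared genes on its other side, where 197 were tested. Both genotypes separated in the same direction in both depots for 10.8% of the 166 tested genes up to 400 places from *Sorl1* on the first side, a window set after the values were seen, for 4.84% of all tested genes on the chromosome and for 2.14% of all tested genes. Among the 100 genes on each side, 60 were tested, 3 separated in this way (5%) and 1, *Abcg4*, was shared. The labels place the knockout on a C57Bl6/J background and do not state the strain of the targeted cells or the number of backcrosses, and these arrays read transcript levels only.

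**Figure D4:**
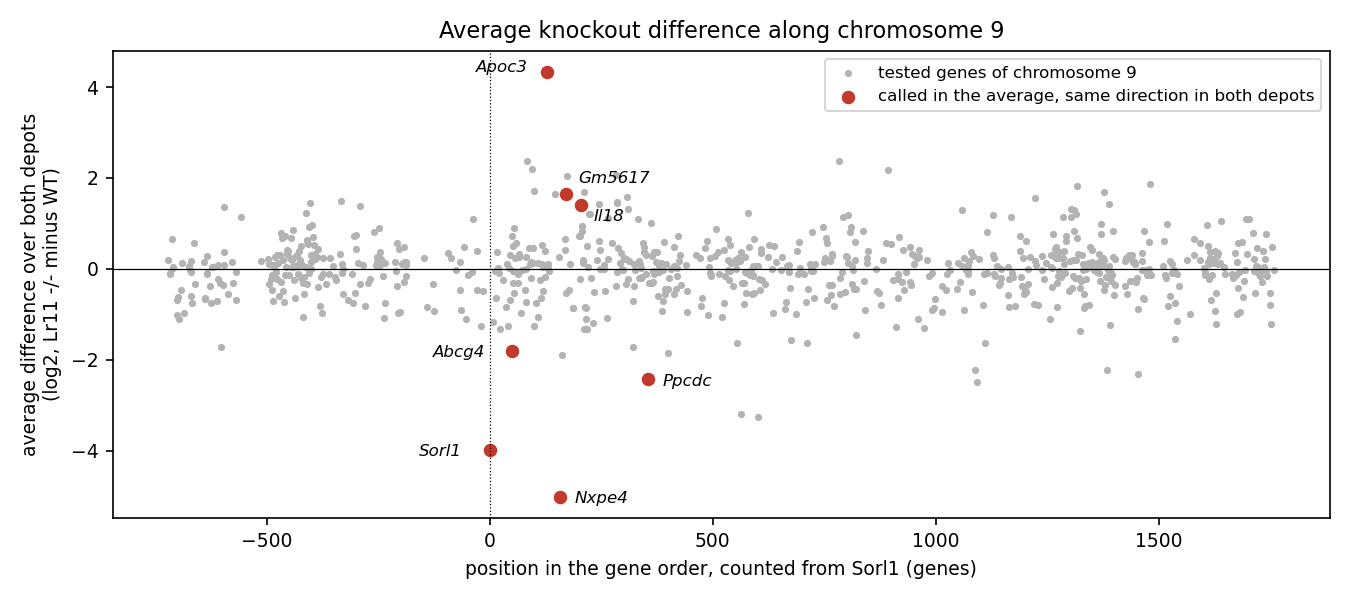
Average difference over both depots (log2, *Lr11* -/- minus WT) of the tested genes of chromosome 9, placed by their position in the gene order counted from *Sorl1*. Shared genes are red. Of those drawn, *Sorl1* and 6 others fall between position 0 and 354, and 1 shared gene is not drawn.

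Most members of the oxidative metabolism lists were higher in *Lr11* -/- in both depots, with far smaller differences in BAT. Over all tested genes 5465 of 14710 were higher in both. Of 9 thermogenic genes all 9 were higher in *Lr11* -/- in both depots, with a median difference of 4.77 in scWAT and 0.26 in BAT. *Ucp1* differed by 10.14 in scWAT and by 0.11 in BAT, and *Cidea*, a lipid droplet protein of brown adipocytes, by 8.70 and 0.10. *Ppargc1a*, the coactivator of mitochondrial biogenesis, and *Elovl3*, a fatty acid elongase of BAT, separated the genotypes in both depots, with differences of 4.50 and 6.29 in scWAT and of 1.52 and 2.37 in BAT. None of the 9 was called in the average (adjusted p = 0.109 for *Ppargc1a* and 0.152 for *Ucp1*). At an unadjusted p of the average under 0.05 were 8 of the 9, as were 18.93% of all tested probes. Of 18 genes of mitochondrial fatty acid oxidation 16 were higher in both depots (medians 2.83 and 0.16), and of 22 genes of the citrate cycle and respiratory chain 20 were (medians 2.38 and 0.11). All tested genes had a median of 0.05 in each depot, and the BAT medians of these lists stood close to it. At an unadjusted p under 0.05 in BAT were 0 members of the 3 lists, beside 2.12% of all tested probes. The scWAT medians rested on the array series. In the first series alone they were 1.70, 0.35 and 1.0 for the 3 lists.

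Lipid storage and sugar genes followed, with 11 of 15 genes of triglyceride storage and lipolysis (medians 1.92 and 0.14) and 9 of 14 of glucose use (2.12 and 0.17) higher in both depots and none called. In BAT 0 members of these lists had an unadjusted p under 0.05. In the first array series alone the scWAT medians of these lists were -0.81 and 0.52. *Abhd5*, the coactivator of adipose triglyceride lipase, and *Gpam*, the first enzyme of glycerolipid synthesis, separated the genotypes in both depots with BAT differences of 0.79 and 0.59. *Dlat*, a subunit of pyruvate dehydrogenase, also separated them, at 2.57 in scWAT and 0.82 in BAT. Of all tested genes 2.14% separated the genotypes in the same direction in both depots. Within the first array series the scWAT differences were 0.01 for *Abhd5*, 1.18 for *Gpam* and 0.25 for *Dlat*. Lower in both depots were 14 of 16 cell cycle genes (medians -1.17 and -0.27), beside 3771 of 14710 tested genes. Of 13 BMP and TGF-beta targets (medians -1.15 and -0.35) 6 were lower in both, 1 was higher in both and 6 had opposite signs. No member of either list was called. Among the BMP and TGF-beta targets *Smad6*, an inhibitor of BMP signalling, had differences of -1.21 and -0.92 (adjusted p of the average = 0.153).

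Genes tied to LR11 itself showed no call. Of 12 partners of SorLA (ligands and sorting adaptors) 5 were lower and 4 higher in both depots, with medians of -0.07 and 0.05 whose sign changed with the scaling. The urokinase receptor *Plaur* had differences of -2.41 and -0.42, and *Apoe* of -0.90 and -0.37. Of the 9 tested receptors of the VPS10p and lipoprotein receptor families 5 were higher and 2 lower in both depots. *Lrp1* had differences of -0.95 and -0.38 and *Lrp5* of 0.65 and 0.45, with adjusted p of 0.291 and 0.245 for the averages. Of 16 tested clock genes, with medians of 0.30 and -0.09, *Per2* separated the genotypes in both depots, as 2.14% of all tested genes did. Its differences were 1.85 and 1.33 (adjusted p = 0.153).

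The remaining pathway lists held members of the same and of opposite sign. Over all tested genes 5474 of 14710 had opposite signs in the depots. Collagen and matrix genes had medians of -1.89 in scWAT and 0.16 in BAT, with 14 of 18 members of opposite sign, and interferon-stimulated genes of 0.28 and -0.48, with 11 of 17 opposite. Acute-phase proteins had medians of -0.29 and 0.17, with 3 of 10 opposite. The interferon scWAT median was -0.22 without *Lr11* -/- scWAT replicate 2, and the acute-phase one was 0.23 without WT scWAT replicate 2. Lipogenesis (12 genes, medians 2.85 and 0.08), cholesterol synthesis (18 genes, 0.11 and 0.01) and adipokines (10 genes, 0.59 and 0.09) had 5, 6 and 3 members of opposite sign, and the sign of their BAT medians changed under other scalings or with 1 array left out. None of these lists held a called member.

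**Figure D5:**
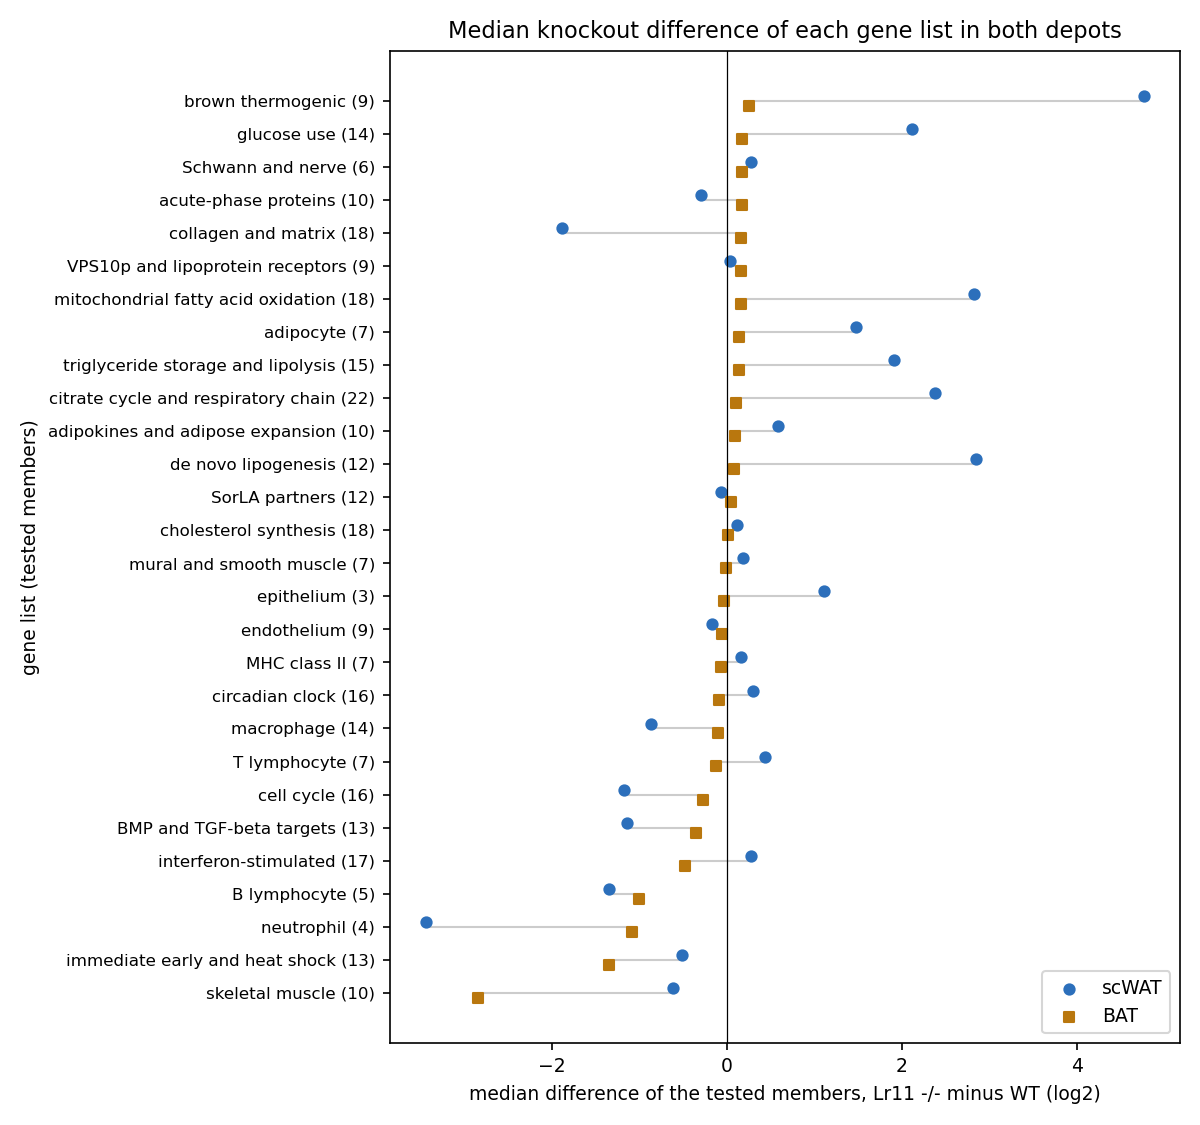
Median difference (*Lr11* -/- minus WT, log2, horizontal axis) of the tested members of each of 28 gene lists in scWAT (blue circles) and BAT (brown squares), ordered by the BAT median, with the number of tested members in brackets. The thermogenic list has the highest median in both depots and skeletal muscle the lowest in BAT.

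Over all tested probes the 2 depots had a weak common direction. The sign was the same for 61.23% of probes, 35.38% higher and 25.85% lower in both, and the differences correlated across probes at a Pearson r of 0.287 and a Spearman rho of 0.295. Probes are not independent of each other, and all were read from the same 12 arrays. In the first array series alone 50.99% had the same sign. Of the 1692 probes called in scWAT 73.05% had the same sign in BAT, 79.74% of those higher and 60.9% of those lower in scWAT. Their size in BAT was small, with a median of 0.12 for the 1091 higher probes, which had a median of 1.74 in scWAT, and of -0.09 for the 601 lower probes, with -1.75 in scWAT. In BAT 66 of them (3.901%) had an unadjusted p under 0.05, 60 with the sign of scWAT, where 2.12% of all probes did.

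Whether the depots differed was tested by the interaction, which called 0 probes (0%), with 3537 (11.0%) at an unadjusted p under 0.05 and a smallest adjusted p of 0.168. Without *Lr11* -/- scWAT replicate 1 it called 1193. Of the 37 shared probes 17 had an unadjusted interaction p under 0.05 and none passed adjustment, so whether their sizes differed between depots is not settled. Genes with opposite signs and an unadjusted p under 0.05 in each depot were ranked by the smaller of their 2 depot differences. The first 3 were *Kif1a*, *Mgarp* and *Adam30*. *Kif1a*, a kinesin motor of neurons, was at -2.07 in scWAT and 2.58 in BAT. Its scWAT difference was 1.01 in the first array series and -3.60 in the second, so the opposite sign rested on the second. *Mgarp*, a mitochondrial protein, was at least 6.64-fold lower in scWAT and 1.02-fold higher in BAT, each against a group with no array above background. *Adam30*, a disintegrin and metalloprotease family member, was at 1.44 in scWAT and at least 1.08-fold lower in BAT. In none of the 3 did the genotypes separate in both depots, and the adjusted interaction p did not pass for any of them.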

How the data were processed

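RNA of the 12 samples was read on one-colour Agilent mouse arrays. Per the file headers, Agilent Feature Extraction 10.10 made the deposited intensities (background-subtracted processed signals, linear scale), with no scaling between arrays by the authors in those columns. The log2 of each intensity was taken after division by its array's 75th percentile, outlier and control spots were left out and spots of 1 probe were averaged. The authors' series value table holds the same processed intensities on the linear scale and was an alternative. Dim probes are poorly measured, so bounds replace folds there, and the number of arrays limits precision.

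limma 3.58.1 in R 4.3.3 fitted 1 mean per group, and the average, each depot and their difference were contrasts with Benjamini-Hochberg adjustment over all 32121 probes. The code was tested on simulated data. A gene's symbol came from matching the array's accession to a RefSeq gene table, which also gave the gene order on chromosome 9, and genes were read from their brightest tested probe for the naming rule, the lists and the chromosome counts, while the remaining shared genes are described from their called probe. Genes were named by rule: *Sorl1*; up to 12 in each direction called, of the same sign and without overlap; the 5 largest averages in each direction; all called in both depots; the 3 most opposite; and 2 per list. Other named genes, among them the remaining called probes and list members, were chosen after their values were seen. Members and lists were chosen with earlier results of these data known. Other scalings, background corrections, filters, blocks, thresholds and left-out arrays were tried. Some genes are not reported here.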

Additional observations from a re-analysis of the deposited data

How the results depend on the processing

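The counts in this paragraph are probes called in the average, then shared probes, then shared probes without overlap, then probes called in both depots separately, which were 39, 37, 29 and 5. They were 33, 33, 25 and 3 with quantile normalization, 19, 19, 14 and 1 with median scaling, 19, 18, 14 and 4 without scaling, and 27, 25, 21 and 5 with the percentile taken over probes above background on all arrays. The last 2 moved the median of all probes by -0.15 and -0.10. Normexp background correction gave 8, 8, 8 and 0. No filter gave 14, 14, 13 and 0, and probes above background on all 12 arrays gave 3, 3, 3 and 1, where only 14 of the 37 were tested. The array series as a block gave 18, 18, 14 and 0, the slide as a block 31, 30, 22 and 1, and the muscle marker mean as a covariate 24, 24, 18 and 0. Array weights gave 3801, 3241, 485 and 43, and the second array series alone 2255, 1779, 881 and 0. With these 2 settings the interaction called 1526 and 890 probes. A trended and robust prior gave 26, 26, 21 and 2, and depot plus genotype without interaction 22, 22, 22 and 5. An adjusted p under 0.01 gave 8, 8, 8 and 0, and under 0.1 gave 146, 133, 75 and 7. Leaving out 1 array gave 8 to 3528, 8 to 3111, 8 to 866 and 0 to 18, and 0 to 1193 for the interaction (236 without WT scWAT replicate 3). The cause of these shifts was not tested. Under every setting *Sorl1* was called. Outlier spots kept and the deposited value table changed none of the 4 counts.

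Some named averages changed sign. *Kif1a* was at -0.1068 with normexp, -0.101 with array weights and -0.7454 in the second series alone. *Adam30* was at 0.1175 with normexp and 0.0343 with the muscle covariate. *Krt14* was at -0.1091 with array weights and -0.2178 in the second series alone. None of the 3 averages was called in any of these fits. With 1 array left out they ranged from -0.266 to 0.6123 (*Kif1a*), -0.4354 to 0.1544 (*Adam30*), -0.1427 to 0.6168 (*Krt14*).

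In the first array series alone the scWAT medians of the lists were 1.6964 for thermogenesis, 0.354 for fatty acid oxidation (0.3836 in BAT), 1.0047 for the citrate cycle, -0.4511 for lipogenesis, -2.1212 for cholesterol synthesis, -0.8119 for triglyceride storage, 0.5204 for glucose use, -2.0662 for adipokines, -0.629 for SorLA partners, -2.5837 for acute-phase proteins and -2.091 for the cell cycle. In the second series alone they were 4.1257 for fatty acid oxidation and 1.4561 for cholesterol synthesis. For SorLA partners the scWAT median was -0.3129 without scaling, and the BAT median was -0.0389 with quantile normalization. With 1 array left out, the medians that moved ranged from -0.2755 to 0.2264 (de novo lipogenesis median in BAT), -1.2418 to -0.761 (BMP and TGF-beta targets median in scWAT), -2.0671 to -0.6912 (cell cycle median in scWAT), -0.5743 to -0.1093 (cell cycle median in BAT).

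No paired analysis was possible because the labels carry no replicate numbers. The replicate numbers in the text only name arrays in accession order. Tests within the first array series were not run, since it has 1 array a group. Dim probes limit the folds, and arrays of 3 a group limit every call.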
